A study of Mus musculus with 6 samples.

Results

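This account covers 5 mouse genes of the interleukin-2 (IL-2) and interleukin-7 (IL-7) systems, Il2 (ENSMUSG00000027720.7), Il2ra (ENSMUSG00000026770.5), Il2rb (ENSMUSG00000068227.7), Il2rg (ENSMUSG00000031304.17) and Il7r (ENSMUSG00000003882.4), out of 22322 genes in the deposited table. They were picked by gene ID, with the symbols that came with the IDs. Ribosome profiling sequences the mRNA fragments that ribosomes protect, called footprints. It was done on 3 libraries of activated and 3 libraries of resting CD4+ T cells. The cells came from spleen and lymph nodes of 6-week-old female C57BL/6J mice. They were purified by negative selection, and activation used beads carrying CD3 and CD28 antibodies. All libraries are labelled untreated and 0 h in a study of mRNA decay, and both groups carry biological replicate numbers 2, 3 and 4. The labels give neither the length of stimulation nor whether a replicate was 1 animal or a pool. The p-values below therefore measure the spread between these libraries, which may in part be technical.

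IL-2 is the growth factor that activated helper T cells secrete and also respond to. Its receptor is built from an alpha chain (Il2ra, CD25) that raises the affinity, a beta chain (Il2rb, CD122) that signals and is shared with the IL-15 receptor, and the common gamma chain (Il2rg, CD132). The common gamma chain also pairs with the IL-7 receptor alpha chain (Il7r, CD127), through which resting T cells receive the IL-7 survival signal. Beta, gamma and Il7r chains signal through Janus kinases and STAT5, while the alpha chain of the IL-2 receptor has almost no intracellular part of its own.

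In RefSeq on GRCm38.p6, Il2 lies at chr3:37120713-37125954, Il2ra at chr2:11642792-11693194, Il2rb at chr15:78479256-78511621, Il2rg at chrX:101264385-101268255 and Il7r at chr15:9506159-9529941. Promoter sequence is shown for Il2, Il2ra and Il7r, the genes with the largest CDS changes below, since it lies directly before their transcribed part. The runs are 5′ to 3′ on the gene's strand, at chr3:37125955-37126204 (minus strand), chr2:11642542-11642791 (plus strand) and chr15:9529942-9530126 (minus strand). The RefSeq promoter window of Il7r is set by a start inside the annotated gene, and its last 65 of 250 bases, which lie in the gene, are left out. Capitals mark GGAAA on either strand, the core that NFAT, the calcium-driven factor of T cell activation, can bind.
Il2: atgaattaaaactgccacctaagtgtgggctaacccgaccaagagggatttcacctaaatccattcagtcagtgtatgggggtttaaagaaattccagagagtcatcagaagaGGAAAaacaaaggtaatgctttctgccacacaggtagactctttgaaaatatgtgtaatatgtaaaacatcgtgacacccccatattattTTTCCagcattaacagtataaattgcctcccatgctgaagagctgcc
Il2ra: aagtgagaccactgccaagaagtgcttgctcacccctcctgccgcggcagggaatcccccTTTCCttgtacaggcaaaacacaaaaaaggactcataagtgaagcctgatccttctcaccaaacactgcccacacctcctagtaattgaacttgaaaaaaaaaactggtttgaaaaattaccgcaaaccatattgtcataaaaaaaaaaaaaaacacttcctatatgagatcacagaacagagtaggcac
Il7r: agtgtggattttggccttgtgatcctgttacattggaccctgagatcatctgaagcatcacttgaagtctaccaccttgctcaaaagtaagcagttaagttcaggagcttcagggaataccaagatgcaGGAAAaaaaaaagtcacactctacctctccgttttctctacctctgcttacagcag

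The Il2 window held 2 such cores, starting 137 and 47 bases before the start. The windows of Il2ra, Il7r and Il2rg held 1 each, counted like all windows over the full 250 bases. At least 1 core was present in 55.6% of 32851 RefSeq promoter windows of this length, and at least 2 in 21.4%. The STAT motif TTCNNNGAA, searched on both strands, occurred once in the Il7r window and not in the windows of Il2, Il2ra or Il2rg, against 7.02% of all windows with a match. The AP-1 motif TGANTCA (6.75% of all windows) and the FOXO motif GTAAACA (3.17%) had no match in these 4 windows. These matches describe letters only.

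Coding-sequence (CDS) counts summed to between 511483 and 1074656 in activated libraries and to between 437200 and 594508 in resting libraries. They were scaled by library total and TMM factor and are given as CPM, and all 5 genes passed the low-count filter. The filter asks for a minimum level in as many libraries as a group holds, which Il2 met only through its activated libraries. Il2, Il2ra and Il2rg rose, Il7r fell, and Il2rb did not pass the test (edgeR's quasi-likelihood test, adjusted p under 0.05). These directions are relative to the scaled library totals, since no measure per cell was used. Over all genes, 45.7% of the 6775 genes tested passed, 24.1% higher and 21.6% lower in activated cells. The groups of libraries did not overlap for 4 of the 5 genes, against 54.8% of all genes tested. Total mRNA of these cells was not analysed here, so more mRNA and more ribosomes per mRNA cannot be told apart. In bulk cells, neither can fewer cells with a transcript and less of it per cell.

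Il2, the cytokine itself, had the largest change of the 5. Its CDS held 374, 501 and 620 counts in activated replicates 2, 3 and 4, against 9, 4 and 3 counts in resting replicates 2, 3 and 4. After scaling these were 850, 630 and 660 CPM in activated libraries and 18.9, 6.49 and 4.61 CPM in resting libraries. Every activated library stood far above every resting library. The mean was 713 ± 119 CPM in activated cells and 10.0 ± 7.78 CPM in resting cells (SD, n = 3 each), a ratio of 71.3. The log2 fold change was 6.23 (SE 0.29, edgeR adjusted p = 2.09e-10), the third highest of the 6775 genes tested. The resting level rests on 16 counts, 9 of them in replicate 2. The log2 fold change was 6.96 without resting replicate 2, 6.02 without resting replicate 3 and 5.86 without resting replicate 4.

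Il2ra, the alpha chain that makes the IL-2 receptor a high-affinity one, rose as well. Activated replicates 2, 3 and 4 had 520, 481 and 720 CPM, against 48.4, 60.0 and 56.9 CPM in resting replicates 2, 3 and 4. The resting libraries lay close together, and replicate 4 was the highest of the activated ones. The mean was 574 ± 128 CPM in activated cells and 55.1 ± 6.03 CPM in resting cells (SD, n = 3 each), a ratio of 10.4. The log2 fold change was 3.37 (SE 0.20, edgeR adjusted p = 3.26e-09), the 69th highest of all genes tested. Resting cells were not without Il2ra footprints, which summed to 97 CDS counts over their 3 libraries, against 1288 over the activated ones. The labelled cell type could not be checked against markers, since the files do not pair IDs with symbols.

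**Figure D1:**
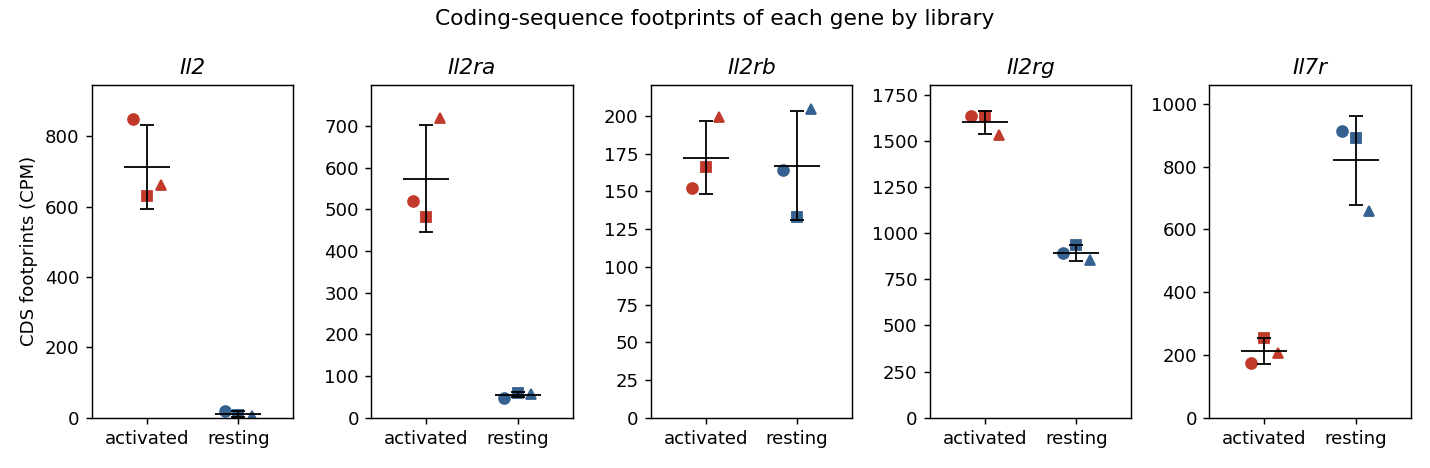
CDS footprints in CPM (vertical axes, each starting at 0) for each gene in activated (red, left) and resting (blue, right) libraries, with circles, squares and triangles for replicates 2, 3 and 4 and black bars for the mean ± SD. Activated libraries lie above all resting libraries for Il2, Il2ra and Il2rg and below them for Il7r, and the groups overlap for Il2rb.

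Il2rg, the common gamma chain, rose with little spread between replicates. It had 1632, 1637 and 1529 CPM in activated replicates 2, 3 and 4, against 892, 936 and 852 CPM in resting replicates 2, 3 and 4. No library of one group came near the other group. The mean was 1599 ± 61.0 CPM in activated cells and 893 ± 42.2 CPM in resting cells (SD, n = 3 each), a ratio of 1.79. The log2 fold change was 0.84 (SE 0.14, edgeR adjusted p = 1.06e-04), with a 95% interval of 0.55 to 1.13. With library totals alone as the scaling it was 0.50 (edgeR adjusted p = 0.00573), where the median of all genes was -0.38 against -0.04 with TMM factors.

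Il2rb, the signalling beta chain, did not pass the test. It had 152, 166 and 199 CPM in activated replicates 2, 3 and 4, against 164, 133 and 204 CPM in resting replicates 2, 3 and 4, and the groups overlapped. The mean was 172 ± 24.1 CPM in activated cells and 167 ± 35.8 CPM in resting cells (SD, n = 3 each). The log2 fold change was 0.05 (SE 0.19, edgeR adjusted p = 0.828). With TMM factors its 95% interval ran from -0.34 to 0.45, that is from 0.790 to 1.37 times the resting level. At this scaling the data therefore do not exclude a change within that range. With other scalings the estimate shifted and its sign turned (-0.081 with upper quartile factors, -0.28 with library totals alone). The median of all genes also moved, to -0.18 with upper quartile factors and -0.38 with library totals alone, against -0.04 with TMM factors.

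Il7r, the IL-7 receptor alpha chain, fell. Activated replicates 2, 3 and 4 had 175, 255 and 208 CPM, against 913, 890 and 658 CPM in resting replicates 2, 3 and 4. The lowest resting library was still well above the highest activated one. The mean was 213 ± 40.3 CPM in activated cells and 820 ± 141 CPM in resting cells (SD, n = 3 each), a ratio of 0.259. The log2 fold change was -1.93 (SE 0.18, edgeR adjusted p = 3.01e-07), the 58th lowest of the 6775 genes tested. Of the alpha chains, Il2ra thus rose and Il7r fell, and the gamma chain that both pair with rose.

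**Figure D2:**
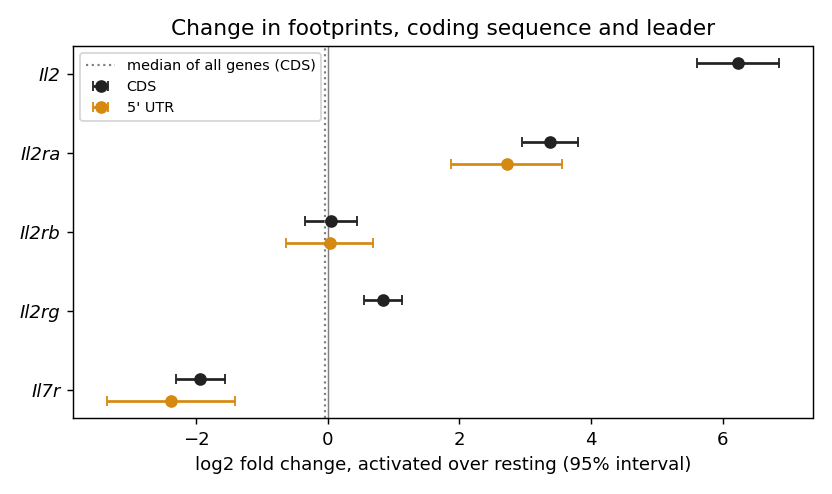
Log2 fold change of footprints, activated over resting, with 95% intervals (horizontal axis), for the CDS (black) and, where tested, the 5' UTR (orange) of each gene. The dotted line marks the median over all genes in the CDS fit, -0.04. Points run from 6.23 for the CDS of Il2 to -2.38 for the 5' UTR of Il7r, and Il2rb lies at 0.05 in the CDS.

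Ratios within a library do not depend on the scaling between libraries, so the makeup of the receptor was described this way. Of the CDS counts on Il2ra, Il2rb and Il2rg together, Il2ra held 22.6% (95% Wilson interval 20.1 to 25.3%), 21.1% (19.3 to 23.0%) and 29.4% (27.6 to 31.3%) in activated replicates 2, 3 and 4. It held 4.38% (2.94 to 6.49%), 5.32% (3.88 to 7.24%) and 5.11% (3.73 to 6.96%) in resting replicates 2, 3 and 4. These intervals cover counting error only. The mean share of Il2ra was 24.4 ± 4.44% in activated cells and 4.94 ± 0.491% in resting cells. That of Il2rb was 7.34 ± 0.766% in activated cells and 15.0 ± 3.30% in resting cells, and that of Il2rg was 68.3 ± 5.08% in activated cells and 80.1 ± 3.25% in resting cells (SD, n = 3 each). Counts are not divided by gene length, so the change of a share can be read and the order of the chains cannot.

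Of the counts on the alpha chains Il2ra and Il7r, Il2ra held 72.6 ± 6.43% in activated cells and 6.43 ± 1.47% in resting cells (SD, n = 3 each). All 5 genes together held 0.284 ± 0.00670% of CDS counts in activated cells and 0.212 ± 0.0155% in resting cells. The groups did not overlap in these 5 shares, of which the first 3 sum to 100% and so are not separate results. The groups also did not overlap for 54.8% of single genes, and the same was not counted for shares of other gene sets. Each had an exact two-sided permutation p of 0.1 (adjusted 0.1), the smallest that 20 assignments of the libraries allow, so this test cannot reach 0.05.

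**Figure D3:**
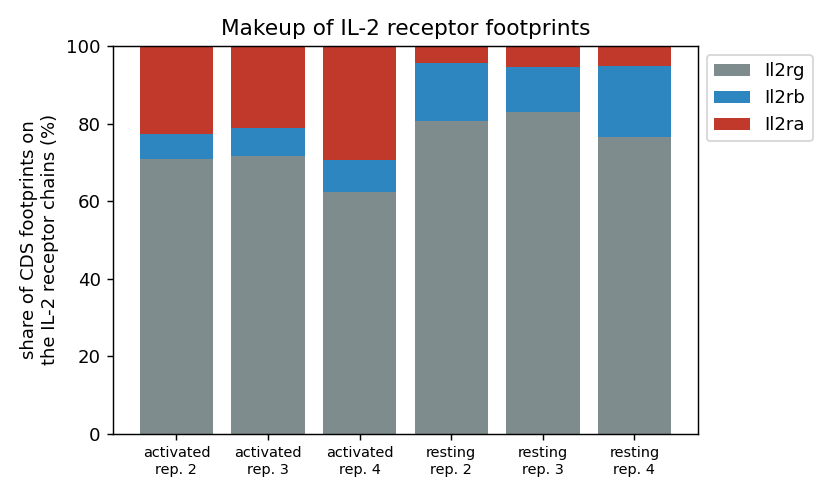
Share of CDS footprints on the IL-2 receptor chains (vertical axis, percent) held by Il2rg (grey), Il2rb (blue) and Il2ra (red) in each library, activated on the left and resting on the right. The Il2ra part is 21.1 to 29.4% in activated libraries and 4.38 to 5.32% in resting libraries.

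Ratios between genes were also taken for all 10 pairs, which share genes and libraries and so repeat the same measurements. The groups overlapped in none of them, which was not counted for pairs of other genes, and each had an exact permutation p of 0.1 (adjusted 0.1). The log2 ratio of Il2rg to Il7r was 2.93 ± 0.27 in activated cells and 0.14 ± 0.21 in resting cells, a difference of 2.79. For Il2 over Il2ra it was 0.32 ± 0.42 in activated cells and -2.73 ± 1.21 in resting cells, a difference of 3.05. Even the closest pair, Il2rb over Il2rg, stood at -3.22 ± 0.25 in activated cells and -2.44 ± 0.38 in resting cells, a difference of -0.78 (SD, n = 3 each for every ratio). Relative to the gamma chain, the beta chain was thus lower in each activated library than in each resting one.

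Leader footprints, counted in the 5' UTR, gave a second reading from the same libraries. Only 3 of the 5 genes had enough 5' UTR counts for the test, and 2 of the 3 passed it, where 42% of 2200 genes tested did. The low-count filter asks for a minimum level in at least 3 libraries. Il2ra met it through its activated and Il7r through its resting libraries, the group where each was high. Their entry into this test is thus not separate support. Il2ra had 38, 72 and 166 leader counts in activated replicates 2, 3 and 4, against 5, 12 and 10 in resting replicates 2, 3 and 4. Its leader footprints rose, with a log2 fold change of 2.72 (SE 0.40, edgeR adjusted p = 9.51e-05). Il7r had 3, 22 and 16 leader counts in activated replicates and 60, 48 and 27 in resting replicates, and fell, with a log2 fold change of -2.38 (SE 0.46, edgeR adjusted p = 8.35e-04). Il2rb had 22, 50 and 64 leader counts in activated replicates and 16, 30 and 43 in resting replicates, with a log2 fold change of 0.03 (SE 0.31, edgeR adjusted p = 0.945). Leader and CDS of Il2ra both rose, those of Il7r both fell, and neither of Il2rb passed the test.

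The number of leader counts per CDS count was taken for each gene. Il2rb had 35.0 ± 2.60 leader counts per 100 CDS counts in activated cells and 29.8 ± 8.33 in resting cells, and Il2ra had 19.98 ± 4.11 in activated cells and 27.1 ± 5.35 in resting cells. Il7r had 7.65 ± 3.50 in activated cells and 9.63 ± 3.84 in resting cells. Il2rg had 0.827 ± 0.400 in activated cells and 0.414 ± 0.271 in resting cells (SD, n = 3 each). Over all genes a library had 14.3 to 20.02 in activated cells and 13.97 to 15.5 in resting cells. Leader lengths were not used here, so these values are not per base and are compared between groups only.

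Relative to the CDS, leader counts of none of the 5 genes changed past the test, nor did those of most genes (0.0764% of 5238 tested, with 502 at an unadjusted p under 0.05). The log2 change was -0.72 for Il2ra (SE 0.42, edgeR adjusted p = 0.612) and 0.69 for Il2rg (SE 0.63, edgeR adjusted p = 0.786), and the groups overlapped for both. Il2 had 11, 5 and 20 leader counts in activated replicates 2, 3 and 4 and 0 in each resting replicate. At the activated ratio of 36 leader counts to 1495 CDS counts, the 16 resting CDS counts would have brought 0.385 leader counts. A lower ratio in resting cells therefore could not be seen at this depth. The log2 change of Il2 relative to the CDS was 1.66 (SE 2.20, edgeR adjusted p = 0.859). Il2rg had 9, 6 and 11 leader counts in activated replicates and 3, 1 and 2 in resting replicates, too few for the test of the leader alone.

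Some records were counted only in the intersection-nonempty mode of the CDS count, which keeps records that lie partly outside the feature. They made up 7.24%, 10.9% and 11.2% of the Il2rg count in that mode in activated replicates 2, 3 and 4, against 22.1%, 13.9% and 18.9% in resting replicates 2, 3 and 4. For Il7r they made up 3.75%, 6.88% and 5.34% in activated replicates and 7.66%, 11.02% and 11.9% in resting replicates. The other genes rested on few such records: 183 in activated and 2 in resting cells for Il2, 52 in activated and 5 in resting cells for Il2ra, and their groups overlapped, as did those of Il2rb. Activated libraries were below resting ones for Il2rg and Il7r. The same held over all genes together, at 7.74 to 8.87% in activated and 9.80 to 10.6% in resting libraries. How many single genes were separated in this way was not counted. Tested against the CDS with each kind of count scaled on its own, the log2 change was -0.70 for Il2rg (SE 0.28, unadjusted p = 0.0190, edgeR adjusted p = 0.749) and -0.59 for Il7r (SE 0.37, edgeR adjusted p = 0.789). No gene passed this edgeR test (0% of 5055 tested, with 321 at an unadjusted p under 0.05). The rise of Il2rg was 0.74 on the log2 scale with these records included (edgeR adjusted p = 3.23e-04).

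**Figure D4:**
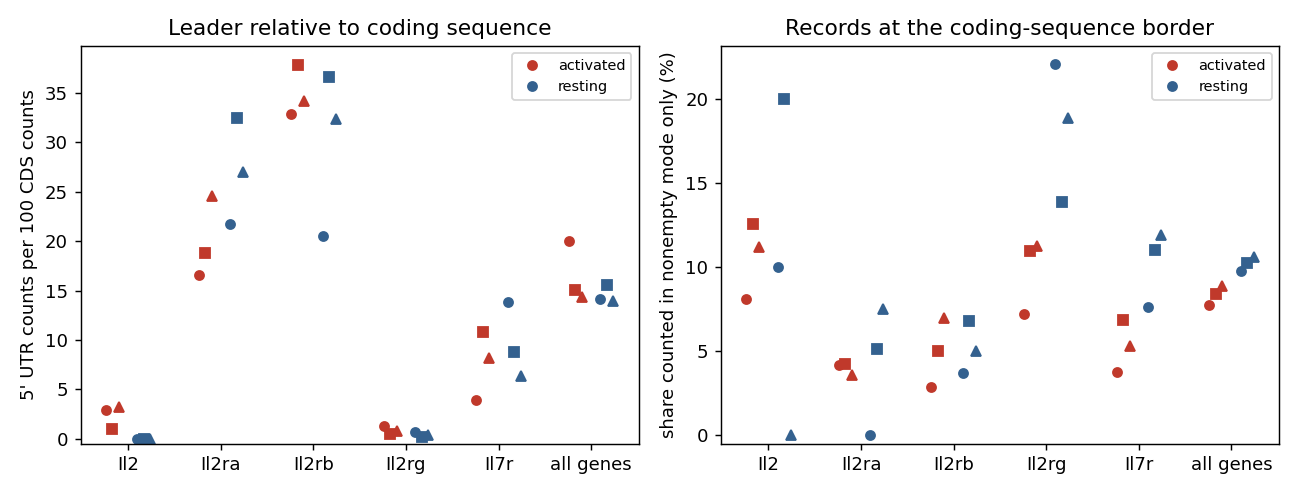
Left, 5' UTR counts per 100 CDS counts, and right, the percent of CDS records counted in the intersection-nonempty mode only, for each gene and for all genes together. Points are libraries, activated in red and resting in blue, with circles, squares and triangles for replicates 2, 3 and 4. Il2rg stands near 0 on the left, and on the right its resting libraries lie between 13.9 and 22.1% and its activated libraries between 7.24 and 11.2%.

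The genes with the most similar profile were sought by Pearson correlation of log2 CPM over the 6 libraries, which fall into their groups, so high values are common: 10.0% of 6774 other genes exceeded 0.95 with Il2ra, and 6.29% with Il7r. The closest to Il2ra was ENSMUSG00000026628.12 (r = 0.998), with 288 ± 90.0 CPM in activated cells and 12.3 ± 3.90 CPM in resting cells (SD, n = 3 each). Like Il2ra, it was highest in activated replicate 4, with 362 counts there. It was chosen by correlation over these same libraries, so this likeness is not a separate result. The closest to Il7r was ENSMUSG00000027111.14 (r = 0.999), with 186 ± 26.3 CPM in activated cells and 564 ± 61.6 CPM in resting cells (SD, n = 3 each). The sources used here do not pair these IDs with gene names.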

How the data were processed

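The authors deposited 1 table of raw counts per gene for 6 libraries, with columns for CDS in 2 counting modes, 5' UTR, 3' UTR, exons and introns, per the file headers. Per the submitters' processing notes, the tools were TopHat2 2.0.13, Bowtie 1.1.1.0 and HTSeq on mm10. Not given in the sources used here are the annotation, the mode of the first CDS count and the strand setting, so records of overlapping opposite genes cannot be told apart. Columns were matched to libraries by the library number in the sample descriptions, since the columns number the replicates of a group from 1 and the labels from 2. Summary rows naming no gene were left out. Of all records in a library's CDS count, with the summary rows included, 65.8% to 79.6% were not uniquely aligned and 11.8% to 14.5% were assigned to no CDS.

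All fits ran on the whole table with edgeR 4.0.16 in R 4.3.3 (filterByExpr for single regions, a sum of at least 10 counts of each kind for ratios, TMM, quasi-likelihood test, two-sided, group as the only term), and p-values were adjusted by Benjamini-Hochberg over every gene in a fit (threshold 0.05). Standard errors are the change over the square root of F. Ratio tests had a term per library, the kind of count and its change in activated cells, each kind scaled on its own. The fits were tested on simulated data. Alternatives used other scalings, DESeq2 1.42.0, limma 3.58.1 (voom), no filter, other count columns, a replicate block and each library left out.

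The members and lists were chosen with earlier results of these data known. The test of CDS border records, the ratios of pairs and the promoter motifs were added after seeing the data. Pathway and marker lists, given by symbol, could not be used, since the reference table holds no Ensembl IDs, so 0 of 22322 IDs could be matched. The labelled cell type was therefore not checked against markers. The named genes are the members and, by rule, the gene most correlated with Il2ra and with Il7r among those with a mean of at least 10 CPM. Promoter sequences are RefSeq's (GRCm38.p6), which holds none for Il2rb here.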

Additional observations from a re-analysis of the deposited data

Results flagged for a closer look

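Counts of the 3' UTR and of introns were not described above. Those of Il2ra showed more signal in activated than in resting cells in both regions. In the 3' UTR, Il2ra had 9, 4 and 8 counts in activated replicates 2, 3 and 4, 21 in all, against 0, 0 and 2 in resting replicates 2, 3 and 4, 2 in all. In introns it had 1, 2 and 7 counts in activated replicates 2, 3 and 4, 10 in all, against 0 in each resting library. These are unscaled counts, and the activated libraries are deeper in sum. Unscaled CDS counts of Il2ra were 13.3 times as many in activated as in resting cells, and the ratio after scaling was 10.4. Of the other genes, Il7r had 4 counts in activated and 23 in resting cells in the 3' UTR, Il2rg had 6 in activated and 11 in resting cells, and Il2rb had 8 in activated and 5 in resting cells. In introns, Il7r had 1, 3 and 2 counts in activated and 0, 3 and 2 in resting replicates, and Il2rb had 0, 2 and 3 in activated and 0, 0 and 2 in resting replicates. Il2 had 0 in both regions, and Il2rg had 0 in introns. No test was run on these counts.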

How the results depend on the processing

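The calls for Il2, Il2ra, Il2rg and Il7r held in direction and at 0.05 in all 15 alternatives for the CDS, and those for Il2ra and Il7r in all 13 for the 5' UTR. Il2rb passed in none, and its sign turned. In the CDS its log2 change was -0.081 with upper quartile factors, -0.28 with library totals alone, and -0.081 to 0.23 with each library left out. In the 5' UTR it was -0.10 with upper quartile factors, -0.20 with library totals alone, and -0.22 to 0.30 with each library left out. The median of all genes in the CDS was -0.18 with upper quartile factors and -0.38 with library totals alone, against -0.04 with TMM factors. Genes lower in the CDS numbered 2572 with library totals alone, against 1464.

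Genes changed in the 5' UTR relative to the CDS numbered 4, against 2 with 1 scaling for both kinds of count, 0 with a replicate block, and 0 to 11 with each library left out (11, 2 and 9 without activated replicate 2, 3 or 4, and 0, 1 and 1 without resting replicate 2, 3 or 4). None of the 5 genes was among those called. For border records the count was 0, against 5 with 1 scaling and 0 to 3 with each library left out (3 without activated replicate 4). The causes were not tested.

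The replicate numbers were not taken to pair libraries across groups. Deviations from the group means correlated at 0.13, 0.07 and 0.23 for libraries with the same number, and each library correlated best with its own number, a hint from the data and not from the design. CDS totals also rose with the replicate number in both groups, and whether depth gives these correlations was not tested. With the replicate block, 3455 genes changed in the CDS, against 3097, and no call for the 5 genes changed. Depth limits the resting level of Il2, at 16 counts, and the leader counts of Il2 and Il2rg.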
